A study of Mus musculus with 6 samples.

Results

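Cytochrome P450 genes of the Cyp2c, Cyp2d, Cyp2j, Cyp3a, Cyp4a, Cyp4f and Cyp4v subfamilies were examined in livers of F1 male mice. Members were all protein-coding genes in the count table whose symbol begins with one of these subfamily names followed by a number, and there were 58 of them among 53715 genes. Of the 58, 37 had enough counts to be tested and 21 did not. The labels describe all samples as liver of ICR males, an outbred mouse stock, at 8 weeks of age. Poly(A) RNA gave 3 libraries of control F1 animals and 3 of FR F1 animals. The stress label of the FR F1 animals gives famine of the father and that of the control animals gives control, while the series title names paternal overdiet and FR is not spelled out. The comparison asks which liver transcripts differ in sons of exposed fathers. No label says whether the libraries of a group come from separate animals or litters, so the tests measure the spread between these samples.

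Cytochrome P450 enzymes are haem-containing monooxygenases of the endoplasmic reticulum that insert oxygen into lipophilic substrates, with electrons delivered by NADPH-cytochrome P450 reductase and, for some reactions, by cytochrome b5. In hepatocytes the Cyp2c, Cyp2d and Cyp3a enzymes oxidise drugs, steroids and bile acids, and several Cyp2c and Cyp2j enzymes form epoxides of arachidonic acid. Cyp4a and Cyp4f enzymes hydroxylate the end of fatty acid and eicosanoid chains. Many Cyp2c and Cyp3a genes respond to the xenobiotic receptors CAR and PXR, Cyp4a genes to the fatty acid receptor PPARA, and some members to the sex-dependent pattern of growth hormone.

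The subfamilies lie in gene clusters, so neighbouring members are similar in sequence. On mm10, in GENCODE M21 coordinates, the 15 Cyp2c members lie on chromosome 19 between 39007019 and 44029208, the 8 Cyp2d members on chromosome 15 between 82370527 and 82794294, and the 8 Cyp4a members on chromosome 4 between 115242084 and 115621602. The 9 Cyp3a members are on chromosome 5, the 8 Cyp2j members on chromosome 4, and Cyp4v3 is on chromosome 8. Of the 9 Cyp4f members, 8 are on chromosome 17 and Cyp4f18 is on chromosome 8. How far reads can tell members apart was described by the share of 50-base stretches of a member's longest coding transcript that occur in no transcript of another gene. That share was over 90% for 16 of the 37 tested members and under 60% for 7 of them, with a median of 85.2% and a minimum of 27.9% for Cyp2c40. Neither the read length nor the treatment of reads that match several genes is given in the sources used here.

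Coding stretches of 90 bases from the GENCODE M21 transcripts show how alike some neighbouring tested members are. The sets were chosen because their results below are read together, and Cyp2c40 is closer to Cyp2c68 (98.1% identity) than the Cyp3a pair shown. They are the gap-free stretches within 1 exon that differ most between the genes compared, so the rest of each coding sequence is more alike still. Capitals mark positions that differ within a set. Cyp4a12a and Cyp4a12b differ at 23 of 1524 aligned coding bases, 98.5% identity, and 7 of these differences fall in this stretch (GRCm38, chr4:115326659-115326748, plus strand, and chr4:115432912-115433001, plus strand).
Cyp4a12a: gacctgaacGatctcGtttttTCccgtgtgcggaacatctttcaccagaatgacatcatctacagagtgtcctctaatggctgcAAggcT
Cyp4a12b: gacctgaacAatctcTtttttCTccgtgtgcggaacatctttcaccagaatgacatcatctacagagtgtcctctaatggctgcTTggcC

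Cyp3a25 and Cyp3a59, which differ at 38 of 1509 coding bases (97.5% identity), have 6 differences in the following stretch (chr5:145994889-145994978, minus strand, and chr5:146094347-146094436, plus strand).
Cyp3a25: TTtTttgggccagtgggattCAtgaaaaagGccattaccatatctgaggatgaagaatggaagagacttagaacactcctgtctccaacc
Cyp3a59: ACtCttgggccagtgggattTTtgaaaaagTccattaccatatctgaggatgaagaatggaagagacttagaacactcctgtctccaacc

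Among the Cyp2d genes, the low-level members Cyp2d11 and Cyp2d12 sit beside the abundant Cyp2d9 and Cyp2d10. Cyp2d10 and Cyp2d11 are 94.7% identical in coding sequence. Compared with Cyp2d9, the stretch below holds 21 differences in Cyp2d10, 12 in Cyp2d11 and 14 in Cyp2d12 (chr15:82456665-82456754, plus strand; Cyp2d12 at chr15:82559252-82559341, plus strand).
Cyp2d9: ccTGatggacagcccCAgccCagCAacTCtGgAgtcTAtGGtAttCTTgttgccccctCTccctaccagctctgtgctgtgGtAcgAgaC
Cyp2d10: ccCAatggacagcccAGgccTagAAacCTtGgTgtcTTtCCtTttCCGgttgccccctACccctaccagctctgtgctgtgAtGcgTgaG
Cyp2d11: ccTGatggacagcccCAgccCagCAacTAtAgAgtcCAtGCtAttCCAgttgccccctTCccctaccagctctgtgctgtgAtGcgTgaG
Cyp2d12: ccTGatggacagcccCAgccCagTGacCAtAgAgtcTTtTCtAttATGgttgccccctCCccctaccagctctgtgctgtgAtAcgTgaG

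Library totals ran from 2279755 to 2730160 counts. The 58 members together took 0.810% to 0.891% of the counts in control F1 libraries and 0.925% to 0.945% in FR F1 libraries. Counts per base pair of the longest transcript rarely exceeded 1 in this table. Among 21769 protein-coding genes of at least 300 base pairs, 13 did so in at least 1 library, up to 1.16. None of the members was over 1, but Cyp2d9 reached 0.945, and 14 of the 37 tested members had a mean over 0.4. Whether counts per base pair have a ceiling was not tested. If they had one, fold changes of the abundant members could be understated and levels compared between genes compressed. Under that assumption only, values were recomputed with counts expanded as if a ceiling lay slightly above the highest density of 1.16. Control replicate 3 stood apart with 0.101% of its counts from mitochondrial genes, against 0.282% to 0.352% in the other 5 libraries. The hepatocyte markers fixed for the tissue check, albumin and apolipoprotein genes among them, were all tested and summed to 4118 to 5238 CPM in the controls and 4495 to 4727 CPM in FR F1 libraries (CPM, TMM-normalised counts scaled to a common library size).

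**Figure D1:**
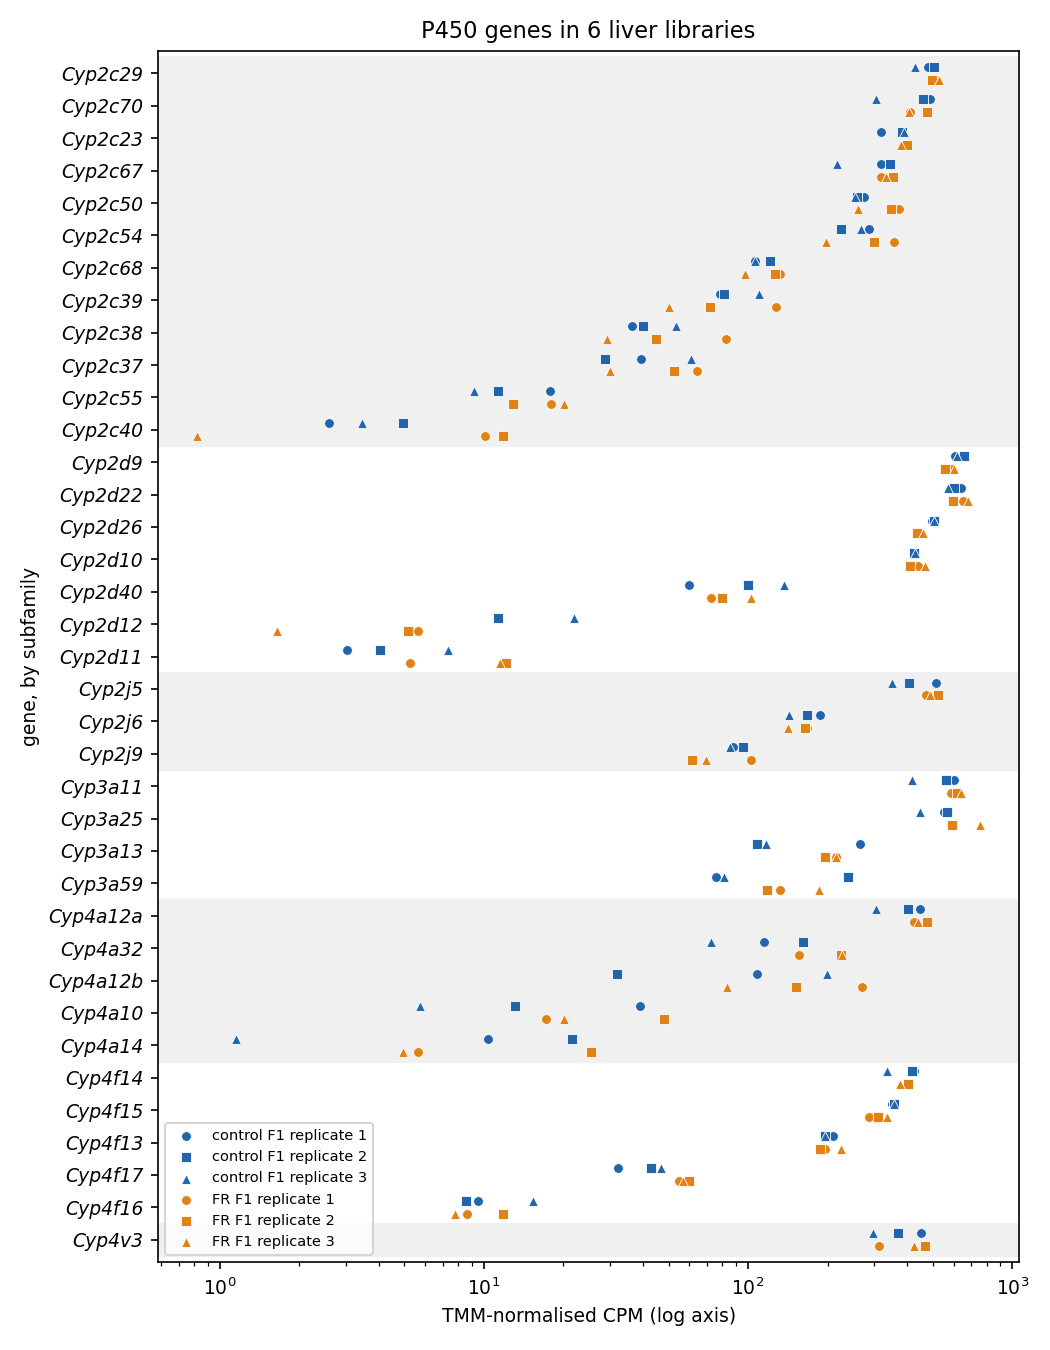
TMM-normalised CPM (log axis) of the 37 tested P450 genes, arranged by subfamily in grey and white bands, in each of the 3 control F1 (blue) and 3 FR F1 (orange) libraries, with the marker shape giving the replicate number. Cyp2c29, Cyp2d9, Cyp2d10, Cyp2d22, Cyp2d26, Cyp3a11 and Cyp3a25 lie above 400 CPM in every library, while Cyp2d12 and Cyp2c40 lie near or under 10 CPM in most libraries.

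None of the P450 genes in these subfamilies passed the test between FR F1 and control F1 livers. Of the 37 tested members 0 were higher and 0 lower (edgeR quasi-likelihood test with an adjusted p under 0.05 by Benjamini-Hochberg over 13022 genes, n = 3 per group). Over all tested genes 0.837% were called, 0.392% higher and 0.445% lower. In bulk tissue fewer cells of a type and less RNA per cell cannot be told apart. The smallest adjusted p was 0.133, for Cyp2d12. At an unadjusted p under 0.05 there were 3 members, 8.11% of those tested, beside 17.9% of all tested genes. DESeq2 called 1 member, Cyp2d12, and limma-voom 0. The members' median log2 fold change was 0.13 and the median absolute value 0.19, against 0.00 and 0.28 over all tested genes. The absolute value depends on level, and most members were abundant. Over 100 CPM these values were 0.12 and 0.13 in the 24 members and -0.05 and 0.19 in all tested genes. Positive values were found in 28 members and negative ones in 9. The groups did not overlap in 6 members, or 16.2%, beside 25.7% of all tested genes. The FR F1 libraries were the higher ones in Cyp3a25 and Cyp4f17 and the lower ones in Cyp2d9, Cyp2d12, Cyp2d26 and Cyp4f15.

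The absence of calls bounds the abundant members more tightly than the others. The 95% interval of the log2 fold change lay within 2-fold either way for 25 of the 37 members, and within 1.5-fold for 16. All of those 16 had a mean over 100 CPM. For the 3 members under 10 CPM, 0 had an interval within 2-fold. With counts expanded toward the assumed ceiling 0 members passed and 11 had an interval within 1.5-fold, and the shift was greatest in Cyp3a25, from 0.30 to 0.58.

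**Figure D2:**
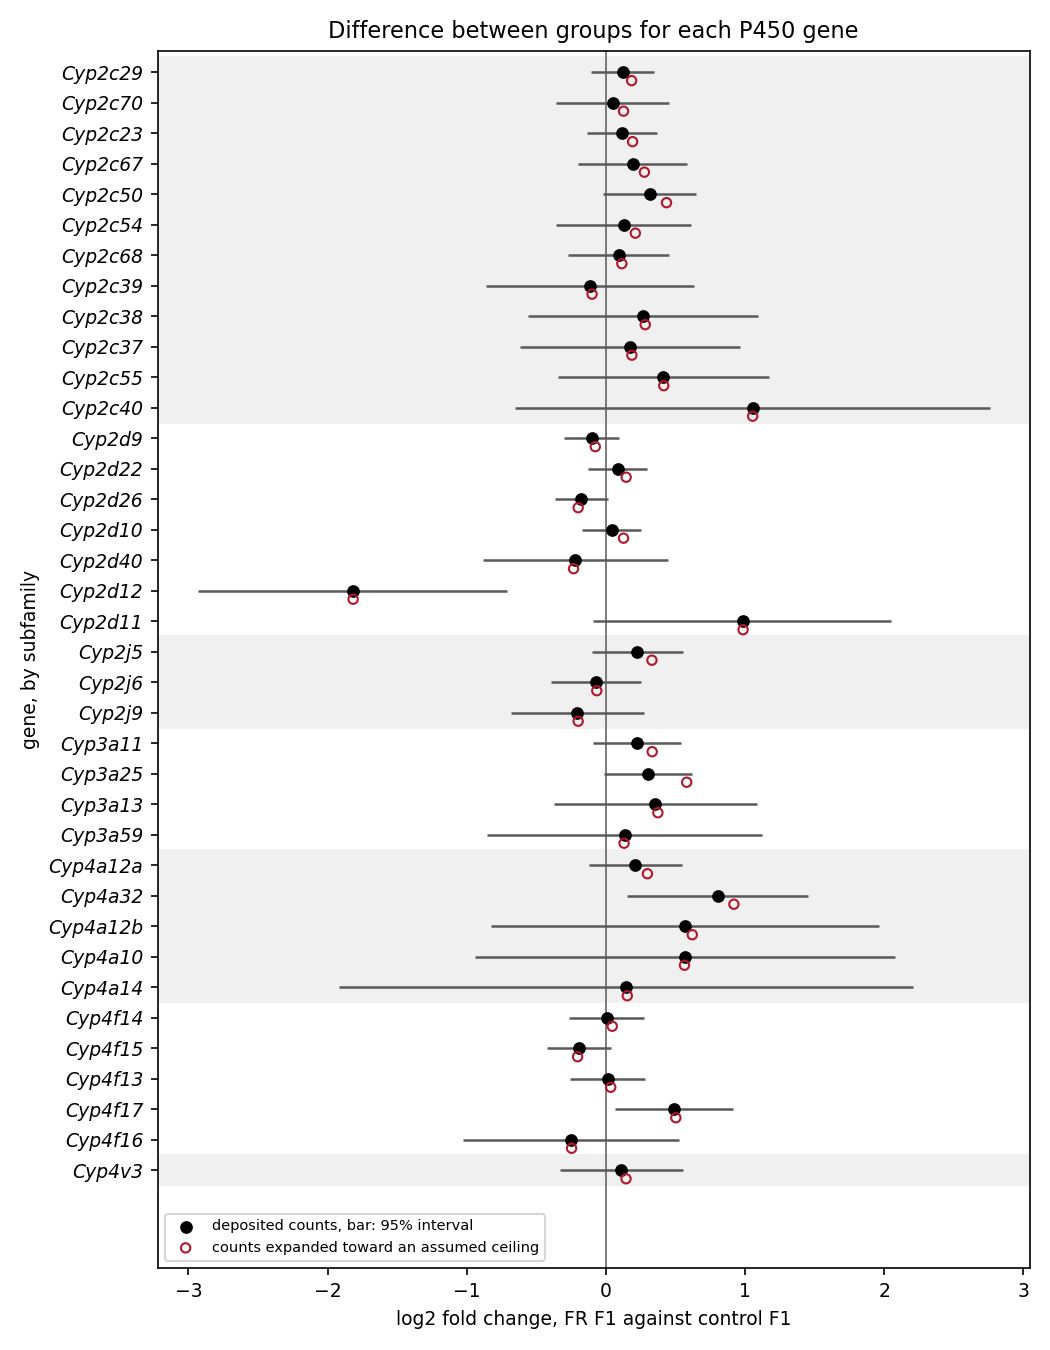
Log2 fold change of FR F1 against control F1 for the 37 tested P450 genes by subfamily (black points, bars giving the 95% interval), with open red circles for counts expanded toward an assumed ceiling. Of the 24 members over 100 CPM 20 have an interval within 2-fold, Cyp2d12 is lowest at -1.82, and Cyp4a14 has an interval from -1.92 to 2.20.

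Of the Cyp3a genes, 4 of 9 were tested, and the log2 fold change was positive in all 4 and past the threshold in none. Cyp3a11 is the main PXR-responsive drug-oxidising Cyp3a enzyme of mouse liver. It had 600, 560 and 418 CPM in control replicates 1, 2 and 3 and 584, 617 and 640 CPM in FR replicates 1, 2 and 3. The groups overlapped, control replicate 3 being the lowest library, and the log2 fold change was 0.22 ± 0.14 (SE, 95% interval -0.10 to 0.54, adjusted p = 0.417). Cyp3a25 had 554, 569 and 449 CPM in the controls and 587, 593 and 757 CPM in FR F1 libraries. Its FR F1 libraries were all above the control F1 libraries, by little in replicates 1 and 2, and the difference did not pass, at 0.30 ± 0.14 (adjusted p = 0.294).

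Cyp3a13 and Cyp3a59 varied more between libraries of a group, and their per-library values are given because of this, a choice made after the values were seen. Cyp3a13 had 265, 108 and 117 CPM in the controls and 215, 196 and 215 CPM in FR F1 libraries. Its log2 fold change was 0.35 ± 0.32 (adjusted p = 0.566), but 0.89 without control replicate 1, with an adjusted p of 0.0191. It was the only member called when any single library was left out. Cyp3a59 had 75.5, 239 and 81.3 CPM in the controls and 132, 118 and 185 CPM in FR F1 libraries, so that control replicate 2 was highest. The paired sum of Cyp3a25 and Cyp3a59 was 656 ± 141 CPM in the controls and 791 ± 131 CPM in the FR F1 group (SD, n = 3 per group), and the groups overlapped. It does not depend on how counted reads were divided between these genes, but any shared reads left uncounted are missing from it.

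Of the 15 Cyp2c genes 12 were tested, and the log2 fold change was positive in 11 of these. None passed, with a median of 0.15 and the lowest value in Cyp2c39. Cyp2c70, which makes the muricholic acids of mouse bile, had the highest level per kb of longest annotated transcript, at 247 CPM per kb. That rank depends on the transcript used, which for Cyp2c29 had 2822 base pairs while its longest coding transcript had 1783. Cyp2c70 had 490, 459 and 304 CPM in the controls and 411, 477 and 408 CPM in FR F1 libraries. Control replicate 3 was again the lowest library, and the log2 fold change was 0.05 ± 0.18 (95% interval -0.36 to 0.46). Cyp2c23, the arachidonic acid epoxygenase gene also called Cyp2c44, had 317, 384 and 388 CPM in the controls and 403, 399 and 380 CPM in FR F1 libraries, a log2 fold change of 0.12 ± 0.11 (adjusted p = 0.578).

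Cyp2c50, an epoxygenase gene inducible by phenobarbital, had the smallest p of the subfamily. It had 275, 260 and 254 CPM in the controls and 372, 349 and 260 CPM in FR F1 libraries, with FR replicate 3 inside the control range. The log2 fold change was 0.32 ± 0.15 (adjusted p = 0.294). Its close neighbour Cyp2c54 showed the same order of FR F1 libraries, 358, 300 and 197 CPM, with 287, 226 and 269 CPM in control F1, and a log2 fold change of 0.13 ± 0.21. Cyp2c50 and Cyp2c54 are 95.2% identical in coding sequence, and 17.5% of the 50-base stretches of Cyp2c54 occur in Cyp2c50. As the treatment of shared reads is not known, their values may not be independent. Cyp2c29, a phenobarbital-inducible hydroxylase gene, was at 473 ± 39.7 CPM in the controls and 514 ± 17.0 CPM in the FR F1 group, and its 95% interval of -0.10 to 0.34 was the narrowest among the Cyp2c members.

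The remaining Cyp2c members did not pass either. The log2 fold changes were 0.19 for Cyp2c67, 0.09 for Cyp2c68, 0.17 for Cyp2c37, 0.27 for Cyp2c38, -0.11 for the retinoic acid hydroxylase gene Cyp2c39 and 0.41 for Cyp2c55. Cyp2c40 had the highest value, with a 95% interval of -0.65 to 2.76, on 6, 11 and 9 counts in control F1 and 27, 32 and 2 counts in FR F1 libraries. FR replicate 3 held both the lowest count of Cyp2c40 and the lowest CPM of Cyp2c38, Cyp2c39, Cyp2c54 and Cyp2c68 among the 6 libraries.

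In the Cyp2d subfamily 7 of 8 genes were tested, with 3 positive and 4 negative log2 fold changes. Cyp2d9, a testosterone hydroxylase gene expressed mainly in males, was the most abundant member of all per length, at 354 CPM per kb. Cyp2d9 had 607, 656 and 621 CPM in the controls and 593, 557 and 604 CPM in FR F1 libraries. All FR F1 values were below the control values, and the log2 fold change of -0.10 ± 0.09 did not pass (95% interval -0.30 to 0.09, adjusted p = 0.538). Cyp2d26 varied little within a group, with 499, 505 and 507 CPM in the controls and 443, 436 and 461 CPM in FR F1 libraries. These groups did not overlap either, and the log2 fold change of -0.18 ± 0.08 did not pass (adjusted p = 0.314). Both genes are near the upper end of count density, with up to 0.945 and 0.778 counts per base pair.

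Cyp2d12 had the lowest log2 fold change of all members, on few counts. It had 26, 25 and 57 counts in control F1 and 15, 14 and 4 counts in FR F1 libraries, or 11.3, 11.3 and 21.9 against 5.61, 5.16 and 1.64 CPM. All FR F1 values were below all control F1 values, and the log2 fold change was -1.82 ± 0.48 (95% interval -2.93 to -0.71, adjusted p = 0.133). Over the alternatives with a value for its adjusted p, it passed with DESeq2 (adjusted p = 0.0449) and without a filter on low counts (adjusted p = 0.00178). Of its 50-base stretches 82.1% were unique and 11.1% were shared with Cyp2d9. The other low member, Cyp2d11, had 3.04, 4.06 and 7.29 CPM in the controls and 5.24, 12.2 and 11.5 CPM in FR F1 libraries, a log2 fold change of 0.98 ± 0.47 (adjusted p = 0.308). Cyp2d10, Cyp2d22 and Cyp2d40 had log2 fold changes of 0.04, 0.09 and -0.22.

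Of the Cyp2j genes, 3 of 8 were tested and none passed. Cyp2j5, an epoxygenase gene of liver and kidney, had 513, 406 and 350 CPM in the controls and 472, 522 and 490 CPM in FR F1 libraries. The FR F1 values fell inside or just above the control range, and the log2 fold change was 0.23 ± 0.14 (adjusted p = 0.424). Cyp2j6 had 187, 167 and 143 CPM in the controls and 167, 164 and 142 CPM in FR F1 libraries, a log2 fold change of -0.07 ± 0.14, and Cyp2j9 had -0.21 ± 0.21. Of the 50-base stretches of Cyp2j6 99.6% were unique, and of those of Cyp2j5 99.8%.

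The log2 fold change was positive in all 5 tested Cyp4a genes, the median being 0.57, and none passed. Cyp4a32 had the smallest p. It had 115, 161 and 72.1 CPM in the controls and 156, 224 and 227 CPM in FR F1 libraries. Control replicate 2 lay just above FR replicate 1, so the groups overlapped, and the log2 fold change was 0.80 ± 0.28 (95% interval 0.15 to 1.46, adjusted p = 0.209). Its value over the fits that left out 1 library ran from 0.55 to 1.11, and it passed only without a filter on low counts (adjusted p = 0.000426). Only 53.2% of its 50-base stretches were unique, and 34.8% were shared with Cyp4a10. Together Cyp4a10, Cyp4a31 and Cyp4a32 had 139 ± 51.0 CPM in the controls and 236 ± 55.0 CPM in the FR F1 group, with overlapping groups.

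Cyp4a12a, the main arachidonic acid hydroxylase gene of male mouse liver, had 447, 404 and 305 CPM in the controls and 423, 477 and 439 CPM in FR F1 libraries. The groups overlapped and the log2 fold change was 0.21 ± 0.15 (adjusted p = 0.460). Its near-copy Cyp4a12b varied far more, with 108, 32 and 199 CPM in the controls and 269, 152 and 83.3 CPM in FR F1 libraries, an 8.41-fold range, and a log2 fold change of 0.57 ± 0.61. Of their 50-base stretches 51.1% and 50.6% were unique. Their sum was 498 ± 59.8 CPM in the controls and 615 ± 86.0 CPM in the FR F1 group, with overlapping groups.

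The PPARA-responsive hydroxylase genes Cyp4a10 and Cyp4a14 were low and variable in both groups. Cyp4a10 had 39.0, 13.1 and 5.75 CPM in the controls and 17.2, 47.9 and 20.1 CPM in FR F1 libraries, a log2 fold change of 0.57 ± 0.66. Cyp4a14 had 10.4, 21.6 and 1.15 CPM in the controls and 5.61, 25.4 and 4.92 CPM in FR F1 libraries, with 0.14 ± 0.90. FR replicate 2 was the highest library for both genes and for the untested Cyp4a31, which had 32 counts there and 3 to 10 in the others. Control replicate 3 was the lowest library for both.

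Of the Cyp4f genes 5 of 9 were tested, with 3 positive and 2 negative log2 fold changes. Cyp4f14, a hydroxylase gene for leukotriene and vitamin E side chains, had 425, 418 and 336 CPM in the controls and 405, 404 and 375 CPM in FR F1 libraries. The groups overlapped fully, with a log2 fold change of 0.01 ± 0.12 (95% interval -0.26 to 0.28). Cyp4f15 had 351, 358 and 356 CPM in the controls and 287, 311 and 334 CPM in FR F1 libraries, all lower, and did not pass at -0.19 ± 0.10 (adjusted p = 0.341). Cyp4f17 had 32.1, 42.8 and 46.8 CPM in the controls and 54.6, 59.7 and 56.6 CPM in FR F1 libraries, all higher, and did not pass at 0.49 ± 0.18 (adjusted p = 0.229). Cyp4f13 and Cyp4f16 had 0.01 and -0.25. Cyp4v3, the mouse counterpart of the human corneal and retinal dystrophy gene CYP4V2, had 451, 370 and 297 CPM in the controls and 314, 470 and 424 CPM in FR F1 libraries, a log2 fold change of 0.11 ± 0.19 (adjusted p = 0.776). It shares 313 of its 3808 exonic base pairs with the gene model Gm45753 on the same strand.

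Summed over all members of a subfamily, the Cyp2c genes held 27.5% and the Cyp2d genes 24.8% of the CPM of all members. Reads shared between members stay within a sum only if they were counted, and the treatment of such reads is not known. The Cyp3a sum was 1495, 1480 and 1066 CPM in the controls and 1520, 1524 and 1798 CPM in FR F1 libraries. The groups did not overlap, though control replicates 1 and 2 lay close to FR replicates 1 and 2, and the log2 ratio of the means, 0.26, was 0.12 without control replicate 3. The Cyp4a sum was 724, 635 and 586 CPM in the controls and 875, 939 and 776 CPM in FR F1 libraries. These groups did not overlap either, and the log2 ratio was 0.41, or 0.34 to 0.50 with 1 library left out. In the sums of the other 5 subfamilies the groups overlapped, with log2 ratios of 0.14 for Cyp2c, -0.04 for Cyp2d, 0.11 for Cyp2j, -0.04 for Cyp4f and 0.11 for Cyp4v. Among single tested genes the groups did not overlap in 25.7%. The sum over all members was 9191, 8960 and 7986 CPM in the controls and 9437, 9458 and 9369 CPM in FR F1 libraries. These groups did not overlap, and the log2 ratio was 0.11. Control replicate 3 was the lowest library in this sum, and the ratio without that library was not computed. No test is given for these sums over chosen members.

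**Figure D3:**
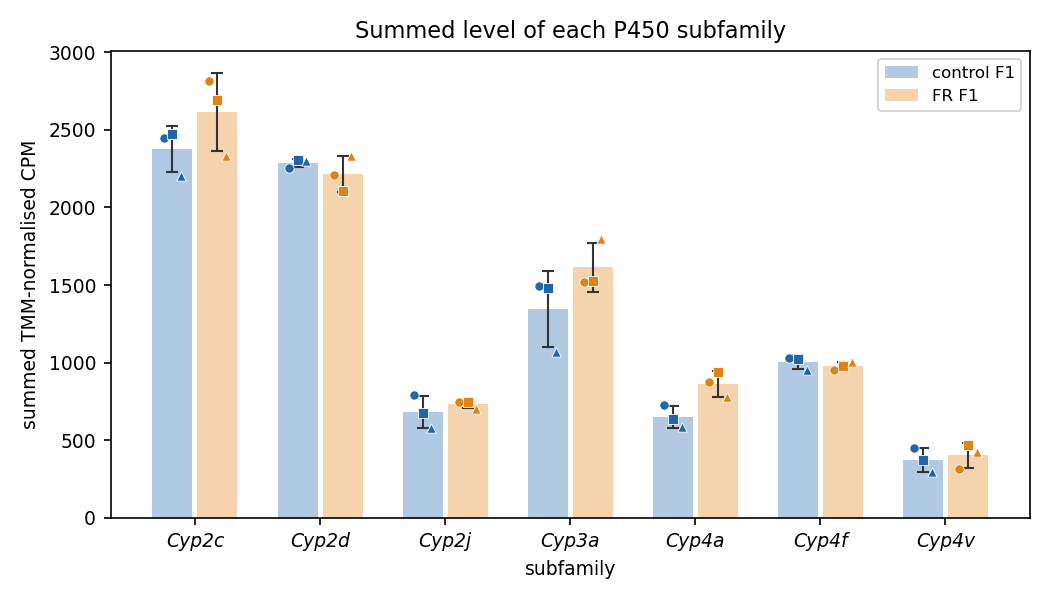
Summed TMM-normalised CPM of all members of each subfamily, with bars for the mean of the 3 libraries of control F1 (blue) or of FR F1 (orange), whiskers for the SD and points for single libraries (circle, square and triangle for replicates 1, 2 and 3). Only in the Cyp3a and Cyp4a sums are all FR F1 libraries above all control F1 libraries, and control replicate 3 is the lowest library in both.

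Control replicate 3 was the lowest library for 12 of the 24 members over 100 CPM, while it was the lowest for 29.9% of all tested genes at that level. Without it the members' median log2 fold change was 0.06, against 0.00 over all genes, and 28 of the 37 members kept the sign they had with all libraries. Its low mitochondrial share is given above, and the part of this library's state in the positive median was not tested.

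**Figure D4:**
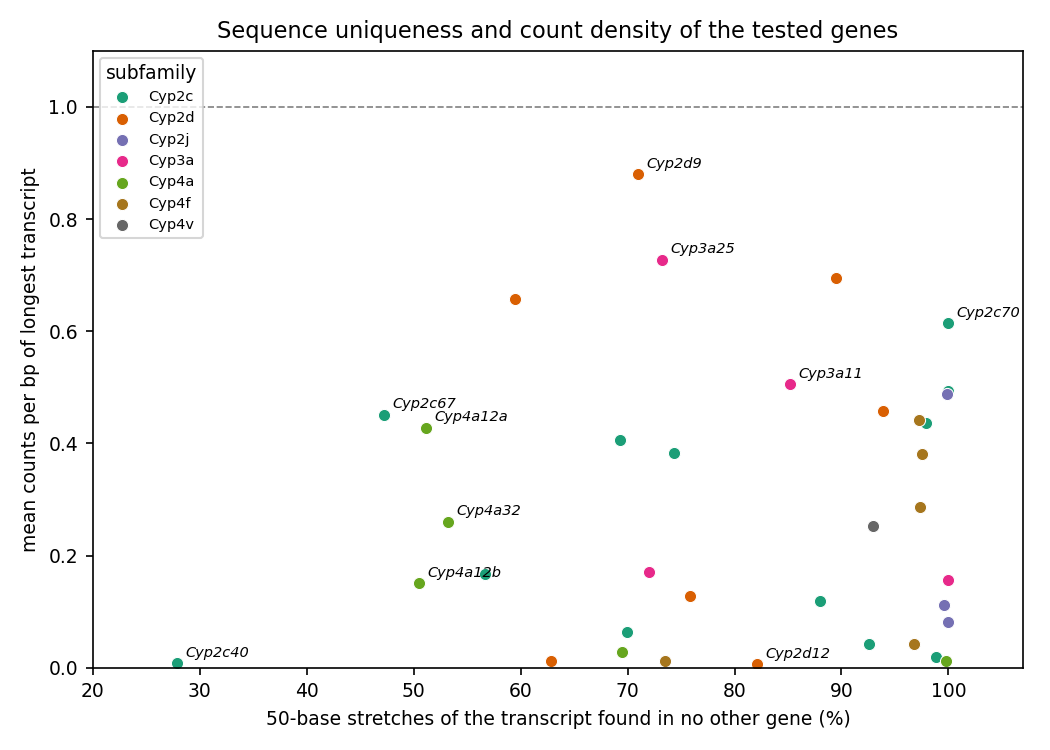
Share of 50-base stretches of the longest coding transcript found in no other gene (horizontal axis) against mean counts per base pair of the longest annotated transcript (vertical axis). The 37 tested P450 genes are coloured by subfamily, and a dashed line marks 1 count per base pair. The transcripts of the axes differ in length for some genes, such as Cyp2d12 with 1654 and 3862 base pairs. Cyp2d9 comes closest to the line, Cyp2c70 combines full uniqueness with a high density, and Cyp2c40 has the lowest uniqueness at 27.9%.

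The members listed for male-biased liver expression were together abundant, and those listed for female-biased expression were together low. Sex bias of the other members was not examined. The male-biased Cyp2d9, Cyp4a12a and Cyp4a12b together held 1092 to 1162 CPM in the controls and 1127 to 1285 CPM in FR F1 libraries. The 6 female-biased genes Cyp2c40, Cyp2c69, Cyp3a16, Cyp3a41a, Cyp3a41b and Cyp3a44 together held 3.47 to 8.56 CPM and 2.87 to 13.3 CPM. Only Cyp2c40 of these was tested. The share of unique 50-base stretches was 27.9% for Cyp2c40, 45.2% for Cyp2c69, 1.39% for Cyp3a41a and 6.50% for Cyp3a41b. Low counts of these genes can therefore also come from shared reads that were not counted. The share was 89.3% for Cyp3a16 and 73.55% for Cyp3a44.

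The 21 untested members held 0 to 66 counts over all libraries, and no library had more than 32 of any of them. Cyp2c65, Cyp2j12, Cyp3a41b and Cyp4a29 had 0 counts in all libraries. The others were Cyp2c66, Cyp2c69, Cyp2d34, Cyp2j7, Cyp2j8, Cyp2j11, Cyp2j13, Cyp3a16, Cyp3a41a, Cyp3a44, Cyp3a57, Cyp4a30b, Cyp4a31, Cyp4f18, Cyp4f37, Cyp4f39 and Cyp4f40. Without a filter on low counts, where 54 members were tested, none of these genes was called. For the near-identical Cyp3a41a and Cyp3a41b, which differ at 2 of 1512 coding bases, 1.39% and 6.50% of 50-base stretches were unique, so their reads may have been lost in counting.

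The gene of the reductase that serves all these enzymes passed the threshold, though not in every alternative fit. Por, the gene of NADPH-cytochrome P450 reductase, had 422, 478 and 454 CPM in the controls and 199, 182 and 275 CPM in FR F1 libraries. All FR F1 values were far below the control F1 values, and Por fell, from 451 ± 28.5 to 219 ± 49.7 CPM (SD, n = 3 per group; log2 95% interval -1.42 to -0.67; edgeR adjusted p = 0.0385). The adjusted p was 0.138 without control replicate 2, 0.184 without FR replicate 1, 0.155 without FR replicate 2 and 0.0770 with a replicate block, with log2 fold changes of -1.23 to -0.93 over the fits that left out 1 library. Among the 8 electron transfer genes examined, Por was the single one past the threshold, beside 0.837% of all tested genes. The other 7 did not pass, and the list median was 0.14. An unadjusted p under 0.05 was found in 3, or 37.5%, beside 17.9% of all tested genes. The groups did not overlap in 3, or 37.5%, beside 25.7% of all tested genes. Cyb5a, the cytochrome b5 gene, had a log2 fold change of 0.18 ± 0.13 (adjusted p = 0.463). Cyb5b, the mitochondrial cytochrome b5 gene, had 0.26 ± 0.09 (adjusted p = 0.193), and the mitochondrial ferredoxin gene Fdx1 had 0.64 ± 0.23 (adjusted p = 0.213).

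**Figure D5:**
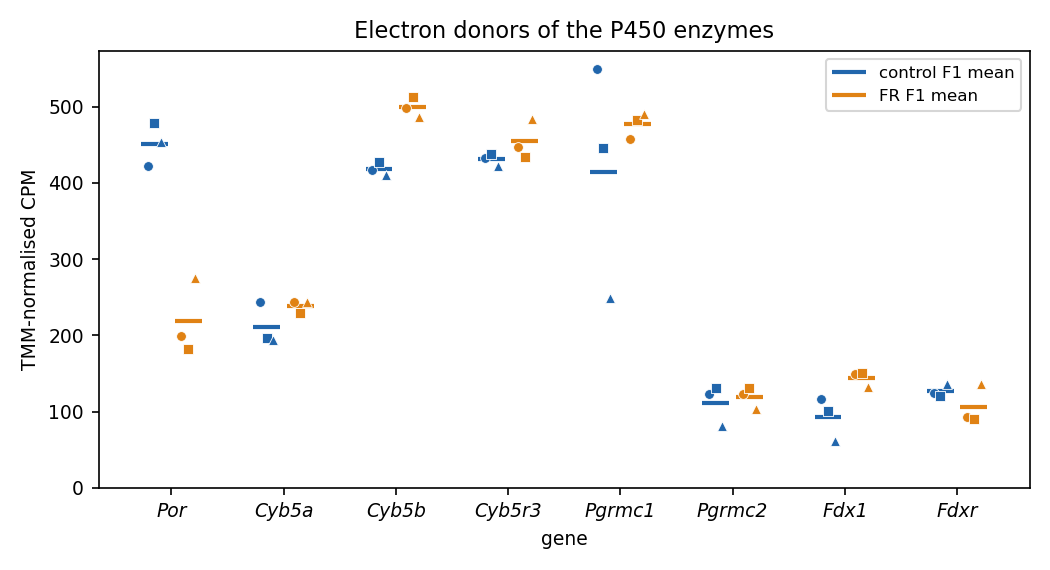
TMM-normalised CPM of 8 electron transfer genes in single control F1 (blue) and FR F1 (orange) libraries (circle, square and triangle for replicates 1, 2 and 3), with horizontal lines for group means. Por is between 422 and 478 CPM in the controls and between 182 and 275 CPM in FR F1 libraries. Cyb5a and Cyb5r3 overlap between the groups, while all FR F1 libraries of Cyb5b and Fdx1 lie above the controls.

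Of the 17 nuclear receptor and coregulator genes tested, which hold the regulators of these P450 genes, 0 passed, with a median log2 fold change of -0.19 (edgeR). An unadjusted p under 0.05 was found in 5, or 29.4%, and the counts given below for other lists are likewise to be read against 17.9% of all tested genes. Besides Nr0b2, given below, these were Hnf4a (-0.355 ± 0.10), Rxra (-0.31 ± 0.11), Ahr (0.82 ± 0.26) and Foxa2 (0.70 ± 0.22). The groups did not overlap in 7 of the 17, or 41.2%, beside 25.7% of all tested genes. The xenobiotic receptor genes Nr1i2 (PXR) and Nr1i3 (CAR) had log2 fold changes of -0.32 ± 0.20 and -0.18 ± 0.16, and Ppara had -0.34 ± 0.22. The smallest p belonged to Nr0b2, which encodes the corepressor SHP, with 64.6, 67.6 and 104 CPM in the controls and 116, 154 and 157 CPM in FR F1 libraries. The groups did not overlap, and the log2 fold change of 0.85 ± 0.22 did not pass (adjusted p = 0.128). Of 15 tested targets of CAR and PXR outside these subfamilies, such as glutathione transferase and glucuronosyltransferase genes, 0 passed and 3 had an unadjusted p under 0.05, with a median of 0.24. The log2 fold change was positive in 11 of them and negative in 4. Gstm2 had the smallest p among them, at 0.49 ± 0.16 (adjusted p = 0.181), and the CAR target Cyp2b10 had 0.60 ± 0.46. Ugt1a1 went the other way, at -0.52 ± 0.22 (adjusted p = 0.27), with all FR F1 libraries below the controls.

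Of 19 tested PPARA targets outside the Cyp4a genes, 1 was lower and 18 did not pass. The median was 0.11, and 4 had an unadjusted p under 0.05. The lower one was Cpt1a, the carnitine palmitoyltransferase gene of mitochondrial fatty acid import, with 536, 534 and 499 CPM in the controls and 322, 377 and 353 CPM in FR F1 libraries (log2 fold change -0.58 ± 0.10, adjusted p = 0.0460). Cpt1a missed the threshold without control replicate 2 (adjusted p = 0.177), without each FR replicate in turn (at most 0.218), with DESeq2 size factors, with a minimum of 1 CPM, with expanded counts, and with a replicate block (0.109). Its log2 fold change without 1 library stayed between -0.64 and -0.51. The values of greatest size in this list went the other way and did not pass. Pdk4, which encodes a kinase that inhibits pyruvate dehydrogenase, had 1.30, 7.21 and 0.767 CPM in the controls and 35.2, 25.4 and 14.0 CPM in FR F1 libraries (log2 fold change 3.03 ± 0.69, adjusted p = 0.0955). Acot1, an acyl-CoA thioesterase gene, had 1.46 ± 0.33 (adjusted p = 0.0917), also with all FR F1 libraries above the controls. Of 16 tested genes of growth hormone signalling and sex-biased expression 0 passed and 3 had an unadjusted p under 0.05, with a median of 0.17. Igfals, the gene of a serum partner of IGF1, had the smallest p, at -0.46 ± 0.11 (adjusted p = 0.111).

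Genes that make or break down arachidonic acid epoxides and hydroxylated products cross the subfamilies. Of the 18 tested, which include the epoxide hydrolase genes Ephx1 and Ephx2, 0 passed, with 0 at an unadjusted p under 0.05 (edgeR). The log2 fold change was positive in 14 of them, the median being 0.16. Cyp2c50 had the smallest p of them. Ephx2, the soluble hydrolase gene, was at -0.003 ± 0.10 and Ephx1 at 0.22 ± 0.10 (adjusted p = 0.306).

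Markers of liver zones and of other cells were read beside these results. Of the general hepatocyte markers given above, 5 of 8 were negative, with 0 past the threshold (edgeR) and 1 at an unadjusted p under 0.05. Pericentral hepatocyte markers, of the zone where most drug-metabolising P450 genes are highest, summed to 2706 to 3118 CPM in the controls and 2825 to 2861 CPM in FR F1 libraries. Of these 8 markers 5 were negative, 0 passed the threshold and 2 had an unadjusted p under 0.05. Periportal markers summed to 3039 to 3657 CPM and 2250 to 2647 CPM, with 7 of 8 negative, 0 past the threshold and 5 at an unadjusted p under 0.05. Endothelial markers summed to 353 to 555 CPM and 689 to 812 CPM, with positive log2 fold changes in 10 of 10, 0 past the threshold and 7 at an unadjusted p under 0.05. Stellate cell and fibroblast markers summed to 333 to 547 CPM and 715 to 855 CPM, with 9 of 9 positive and 6 at an unadjusted p under 0.05. The 1 past the threshold, beside 0.837% of all tested genes, was Pdgfra (log2 fold change 1.53 ± 0.26, adjusted p = 0.0456). Kupffer cell markers overlapped, at 259 to 478 CPM and 326 to 635 CPM, with 8 of 8 positive and 2 at an unadjusted p under 0.05. B cell markers summed to 12.2 to 34.3 CPM and 49.4 to 98.0 CPM, and erythroid markers to 161 to 382 CPM and 403 to 463 CPM, with 0 past the threshold in either list. At an unadjusted p under 0.05 there were 2 of 2 tested B cell markers and 1 of 3 erythroid markers. The part of these shifts in the values of Por or of the P450 genes was not tested.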

How the data were processed

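The values are raw gene counts of the 6 libraries, deposited as a single table. Per the submitters' processing notes, mm10 was the build and DESeq2, HTSeq, STAR and StringTie were used, without versions or roles. For the annotation release, strand setting, multi-mapped reads and duplicates, no source used here gives the choice made. Columns were matched to samples by the code in each description. Symbols, biotypes, positions and lengths came from GENCODE M21, which matched 53620 of 53715 gene IDs.

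Counts were tested in edgeR 4.0.16 (R 4.3.3): filterByExpr (minimum count 10, minimum total 15), TMM factors, quasi-likelihood F test, two-sided, Benjamini-Hochberg adjustment over 13022 genes. The standard error is the absolute log2 fold change divided by the square root of F, and 95% intervals use the fit's degrees of freedom. CPM use TMM-adjusted library sizes, and CPM per kb the longest annotated transcript. Replicate pairs differed beyond counting noise (chi-square per degree of freedom 4.01 to 13.4), so all 6 were kept as separate samples.

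Members and lists were chosen with earlier results of these data known. Genes were named with per-library values when changed, of smallest p in their subfamily, or among the 2 most abundant per kb there, and from pathway lists when changed or of smallest p. Per-library values of Cyp2c54, Cyp3a13, Cyp3a59, Cyp2c40, Cyp2d11, Cyp4a10, Cyp4a12b and Cyp4a14 were added after their values were seen, as were the other list genes named. Coding sequences were aligned with MAFFT 7.526. Alternatives were DESeq2 1.42.0, limma-voom (limma 3.58.1), other scalings and filters, leaving out each library, a replicate block, a robust fit, expanded counts and an adjusted p under 0.10.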

Additional observations from a re-analysis of the deposited data

How the results depend on the processing

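The number of changed members was 0 in all fits but 3 kinds. It was 1 with DESeq2, 3 without a filter on low counts (Cyp4a32, Cyp2d12 and Cyp4a12b), and 0 to 1 when 1 library was left out. The number of changed genes over the table was 109 with all libraries, 423 with DESeq2, 1251 without the filter, and 7 to 651 when 1 library was left out; the cause was not tested. Replicate numbers are shared by the groups, but same-numbered libraries deviated together with correlations of only -0.02, 0.11 and 0.15, so they were not treated as pairs. With a replicate block 21 genes and 0 members were called. Among the 16 named members and 2 list genes, directions reversed only for values near 0. Cyp4f14 was at -0.008 without the filter and ran from -0.10 to 0.065 when 1 library was left out. In those fits Cyp2c70 ran from -0.14 to 0.18, Cyp2j6 from -0.17 to 0.02 and Cyp4v3 from -0.034 to 0.27. The subfamily sums were recomputed with library totals, with expanded counts and with 1 library left out. Leaving out 1 library gave log2 ratios of 0.12 to 0.34 for Cyp3a and 0.34 to 0.50 for Cyp4a, and the small ratios of Cyp2j (-0.002 to 0.22) and Cyp4v (-0.03 to 0.27) turned sign. With expanded counts the Cyp3a ratio was 0.43. Depth limits the members under 10 CPM. Whether a ceiling on counts per base pair exists was not tested.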
